A study of Mus musculus with 9 samples.

Results

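Heat shock proteins and their J-protein cochaperones were represented by 74 of the 19938 genes with a named probe set on the arrays. They were chosen by gene symbol alone: 45 Dnaj genes, 24 Hsp genes and 5 genes whose symbols start with Hsf, leaving out Hspa5, the HSP70 of the endoplasmic reticulum, and pseudogene names. Hsf1, Hsp90ab1 and Hspa1b were not analysed here. Liver RNA came from 9 mice, 1 Affymetrix array each, in 3 groups of 3. The wild-type group was C57BL/6J. The mutant group carried the Clock-D19 allele, a form of the circadian transcription factor CLOCK that still pairs with BMAL1 but activates poorly. The rescue group were Clock-D19 mutants injected through the tail vein under pressure at week 10 with 35 µg of plasmid carrying wild-type Clock in the pLIVE vector, which drives expression from an albumin promoter and so mainly in hepatocytes. All mice, wild type included, ate a 45% fat diet for 5 weeks from 10 weeks of age, under 12 h of light and 12 h of dark, and were killed at zeitgeber time 10 (hours after lights on). The labels describe no injection for the other groups, so the plasmid and the injection cannot be told apart. The p-values measure the spread between single livers of a group, and values are log2 levels after the authors' normalization.

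HSP70 chaperones bind exposed hydrophobic stretches of unfolded proteins and release them in a cycle driven by ATP. J-proteins, the products of the Dnaj genes, bring clients to HSP70 and trigger its ATP hydrolysis, nucleotide exchange factors such as the HSP110 proteins reset it, and HSP90 acts on clients nearer their native fold. Heat shock factor 1 induces the cytosolic genes under protein-folding stress, while the unfolded protein response induces those of the endoplasmic reticulum, and in liver several of the heat shock genes follow a daily rhythm that tracks body temperature and feeding.

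The samples showed the pattern of liver. The mean log2 level of 11 hepatocyte marker genes lay between 11.52 and 11.84 on every array. Clock itself measured 9.97, 9.24 and 9.30 in wild type, 10.88, 9.89 and 10.55 in the mutants and 10.33, 9.41 and 9.62 in rescue. The mutants were higher than wild type by 0.94 (log2; limma adjusted p = 0.0266), and rescue minus mutant was -0.66 (adjusted p = 0.168). So the array showed no gain of Clock RNA in rescue over the mutants. Which of the mutant and plasmid transcripts its probe set reads was not tested, so it does not check the labels. Direct targets of CLOCK were low in the mutants. Dbp fell by 1.09 ± 0.14 (log2, SE; limma, Benjamini-Hochberg adjusted p = 0.000208) and Per3 fell by 1.70 (adjusted p = 2.8e-05). In rescue both stayed below wild type, by -0.97 and -1.84 (adjusted p = 0.00169 and 4.61e-05), and neither passed against the mutants (0.12 and -0.14; adjusted p = 0.648 and 0.667). The clock repressor genes Nr1d1 and Bhlhe41 rose in rescue against mutant, by 1.29 and 1.20 (adjusted p = 0.0167 and 0.00824), and the difference of Bhlhe41 from wild type was -1.92 (adjusted p = 0.000112). Markers of Kupffer cells and endothelium also moved with genotype. Of 10 Kupffer cell markers, 6 fell in the mutants and none rose; the array means ran from 7.39 to 7.84 in wild type, 6.80 to 6.86 in the mutants and 6.94 to 7.24 in rescue. Of 14 endothelial markers, 8 fell and none rose, with array means of 7.84 to 7.99, 7.32 to 7.37 and 7.49 to 7.81. Among 10 markers of stellate cells and fibroblasts, 3 fell and 1 rose (median difference 0.005), with array means of 7.34 to 7.49, 7.25 to 7.32 and 7.40 to 7.44. Of the 11 hepatocyte markers, 1 rose in the mutants, Asgr1, by 0.76 (log2; limma adjusted p = 0.00271). Of the other lists, 1 of 6 smooth muscle markers rose, 1 of 7 lymphocyte markers fell, and none of 5 bile duct or 6 neutrophil markers was called. The part of these cells in the results below was not tested, and in bulk liver fewer cells of a type and less RNA per cell cannot be told apart.

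In Clock mutants, 12 of the 74 genes fell and none rose against wild type. All were J-protein genes except Hspa4l and Hspb11, and the falls lay between 1.27-fold and 1.49-fold. Hspa1a, Hspa8, Dnajb1, Hsph1, Hspd1 and Hspe1 did not pass the test. The 12 calls (limma, adjusted p under 0.05) are 16.2% of the members, against 15.4% of all genes called in either direction. By direction, 9.02% of all genes fell and 6.37% rose. The median difference was -0.017 over the members and 0.073 over all genes. At an unadjusted p under 0.05, 5 members were higher and 17 lower, together 29.7% against 30.7% of all genes. The 3 mutant values lay apart from the 3 wild-type values in 26 members, 11 higher and 15 lower, or 35.1% against 35.7% of all genes. The count of calls fell to between 4 and 7 when any 1 wild-type or mutant array was left out: 7, 7 and 4 without wild type 1, 2 and 3, and 6, 5 and 7 without mutant 1, 2 and 3. Calls over all genes also fell in these settings, from 3068 to between 1695 and 2469. With the quantile normalization repeated, 8 fell and 1, Dnajc8, rose. Without the dimmest 40% of genes, 12 fell and 3 rose (Dnajb2, Dnajc8 and Hspb9). These 2 settings called 2967 and 3369 genes in all. Dnajc8 also passed as higher with a trended and robust prior, with only the 6 arrays compared and without rescue 1.

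**Figure D1:**
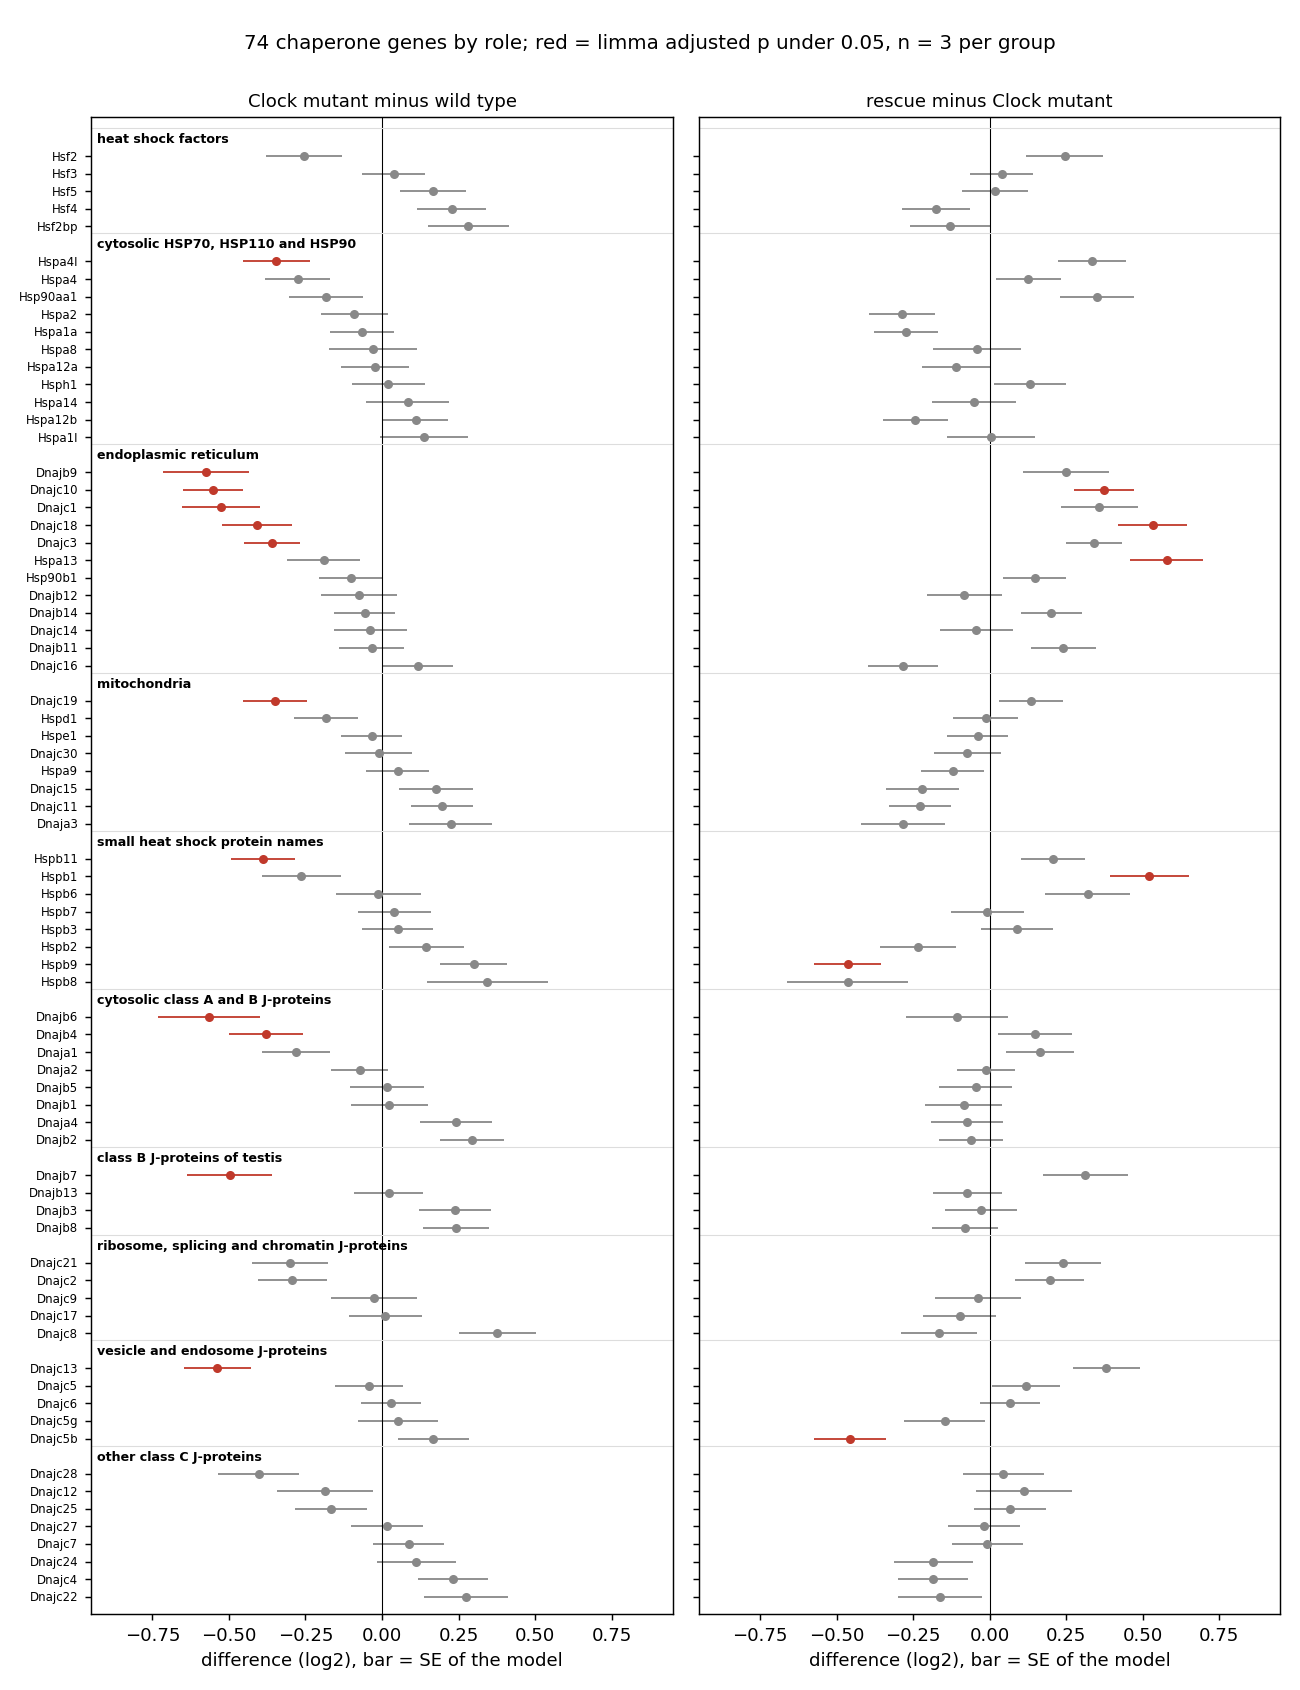
Log2 difference of each of the 74 members for mutant minus wild type (left) and rescue minus mutant (right), grouped by the role or place of the protein; bars are the model's SE, and red marks a limma adjusted p under 0.05. The 12 red points on the left all lie below 0, 5 of them in the endoplasmic reticulum, and 9.02% of all genes fell. On the right 4 red points lie above 0 and 2 below.

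The endoplasmic reticulum held 5 of the 12 genes that fell, out of 12 members placed there, and 9.02% of all genes fell. Whether the falls concentrate in this group was not tested, and the members were chosen with earlier results of these data known. Dnajb9 (ERdj4), a cochaperone of the reticulum's HSP70 that also restrains the stress sensor IRE1, measured 9.51, 9.64 and 9.46 in wild type, 8.58, 9.15 and 9.15 in the mutants and 9.10, 9.27 and 9.26 in rescue. Mutant 1 was the lowest of the 9, and all mutants lay below all wild types. The mutant level was 1.49-fold lower (log2 -0.58 ± 0.14, SE, n = 3 per group; limma adjusted p = 0.0136). Without mutant 1 the difference was -0.39 with an adjusted p of 0.0521. Dnajc10 (ERdj5), a disulfide reductase that prepares misfolded proteins for export and degradation, measured 8.18, 8.06 and 8.18 in wild type, 7.54, 7.68 and 7.54 in the mutants and 7.95, 7.96 and 7.97 in rescue. The 3 groups did not overlap, with rescue in between. The mutant level was 1.47-fold lower (log2 -0.55 ± 0.10; adjusted p = 0.00183), and this call held under all 19 alternatives run, with an adjusted p of at most 0.0106.

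**Figure D2:**
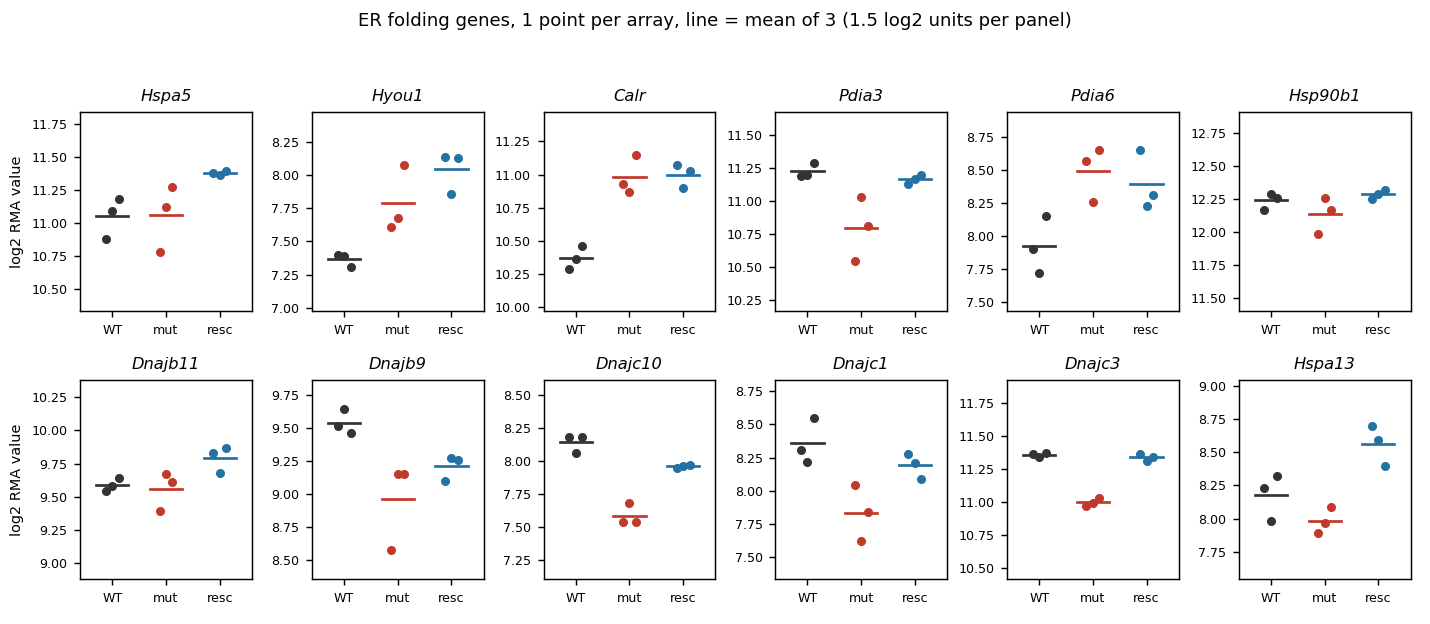
Log2 level of 12 folding genes of the endoplasmic reticulum, 7 of them members and 5 (Hspa5, Hyou1, Calr, Pdia3 and Pdia6) not, in wild type (WT), mutant (mut) and rescue (resc) livers; each point is 1 array, each line the mean of 3, and every panel spans 1.5 log2 units. The mutant points of Dnajb9, Dnajc10, Dnajc1, Dnajc3 and Pdia3 lie below all wild-type points. Those of Calr, Hyou1 and Pdia6 lie above all wild-type points, and those of Hspa5, Hsp90b1, Dnajb11 and Hspa13 overlap them.

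Dnajc3 (p58IPK), a luminal cochaperone linked to the control of translation under stress, showed a narrow spread: 11.36, 11.34 and 11.37 in wild type, 10.97, 10.99 and 11.03 in the mutants and 11.36, 11.31 and 11.34 in rescue. The mutants stood apart below both other groups, whose values overlapped. The mutant level was 1.28-fold lower (log2 -0.36 ± 0.09; limma adjusted p = 0.0175), though the adjusted p passed 0.05 without wild type 1, wild type 3 or mutant 1, reaching 0.0594. Dnajc1 (ERdj1), a membrane J-protein that can bind the ribosome, measured 8.31, 8.22 and 8.55 in wild type, 8.04, 7.62 and 7.84 in the mutants and 8.28, 8.21 and 8.09 in rescue. All mutants were below all animals of the other groups, and rescue overlapped wild type. Its fall of 0.53 ± 0.13 on the log2 scale (adjusted p = 0.0121) was not called without wild type 3 or mutant 2 (adjusted p up to 0.0652). Dnajc18, a J-protein of the membrane of the reticulum, measured 7.15, 7.02 and 7.32 in wild type, 6.80, 6.70 and 6.77 in the mutants and 7.36, 7.40 and 7.10 in rescue. The mutants were again the 3 lowest animals, by 1.33-fold against wild type (log2 -0.41 ± 0.11; adjusted p = 0.0274). That call was lost without wild type 1 or 3 or any single mutant array (adjusted p up to 0.119).

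The other 7 genes of the reticulum did not pass the test in the mutants. Hsp90b1 (GRP94), its HSP90, measured 12.17, 12.29 and 12.26 in wild type, 11.99, 12.26 and 12.17 in the mutants and 12.25, 12.29 and 12.32 in rescue. Dnajb11 (ERdj3), a soluble cochaperone, measured 9.54, 9.58 and 9.64, then 9.39, 9.67 and 9.61, then 9.83, 9.68 and 9.87 in the same order. Mutant and wild-type animals overlapped for both genes. Hspa5 (BiP), the HSP70 that these J-proteins serve, stood outside the rule and differed by 0.01 ± 0.13 between mutant and wild type (log2; limma adjusted p = 0.979). Its 3 rescue values, 11.38, 11.36 and 11.39, lay above the mutants' 10.78, 11.12 and 11.27 and the wild types' 10.88, 11.09 and 11.18, with adjusted p of 0.161 and 0.235.

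Promoter sequence was read for the genes that the mutant comparison turned on, from RefSeq (GRCm38.p6), for 60 of the 74 members with an entry. Each window runs from 250 bases before the annotated start to 50 after it. Dnajb9 (chr12:44210069-44210318, minus strand) and Dnajc1 (chr2:18392831-18393080, minus strand) hold CACGTG, the E-box that CLOCK and BMAL1 are known to bind. Dnajc3 (chr14:118937682-118937931, plus strand) and Hsp90b1 (chr10:86705508-86705681, minus strand) hold the ER stress element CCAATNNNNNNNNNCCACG, Hsp90b1 once on each strand. Dnajc10 (chr2:80315216-80315465, plus strand) holds TTCNNGAA, a pair of heat shock units placed tail to tail. The 250 bases before the start are printed 5′ to 3′ on the gene's strand with the fixed letters of these motifs in capitals; for Hsp90b1 only the bases from -237 to -64 around its elements are shown, where -1 is the base before the start.
Dnajb9: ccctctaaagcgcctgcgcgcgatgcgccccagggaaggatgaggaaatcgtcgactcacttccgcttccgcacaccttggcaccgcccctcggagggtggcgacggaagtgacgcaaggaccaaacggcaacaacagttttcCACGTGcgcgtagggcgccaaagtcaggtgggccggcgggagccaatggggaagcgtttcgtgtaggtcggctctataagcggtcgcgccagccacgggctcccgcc
Dnajc1: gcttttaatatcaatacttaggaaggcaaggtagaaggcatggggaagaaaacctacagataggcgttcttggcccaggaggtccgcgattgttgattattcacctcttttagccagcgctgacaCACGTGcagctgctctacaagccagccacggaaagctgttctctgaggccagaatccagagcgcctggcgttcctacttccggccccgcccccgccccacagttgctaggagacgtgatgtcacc
Dnajc3: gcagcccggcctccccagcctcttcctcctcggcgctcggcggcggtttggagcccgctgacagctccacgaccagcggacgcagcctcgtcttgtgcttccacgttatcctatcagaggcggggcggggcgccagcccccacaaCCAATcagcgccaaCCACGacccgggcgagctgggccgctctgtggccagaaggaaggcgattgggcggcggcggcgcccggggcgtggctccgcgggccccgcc
Dnajc10: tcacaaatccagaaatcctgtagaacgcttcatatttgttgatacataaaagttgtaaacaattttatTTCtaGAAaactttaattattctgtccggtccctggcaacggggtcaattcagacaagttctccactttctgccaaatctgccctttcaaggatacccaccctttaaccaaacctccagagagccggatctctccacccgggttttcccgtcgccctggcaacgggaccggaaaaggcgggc
Hsp90b1: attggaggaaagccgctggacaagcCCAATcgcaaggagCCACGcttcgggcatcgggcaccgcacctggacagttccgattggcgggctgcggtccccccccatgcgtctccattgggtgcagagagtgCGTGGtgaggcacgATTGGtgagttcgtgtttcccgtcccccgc

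Both strands were searched in every window of 15562 tested genes. The E-box was in 8.21% of all genes and in 7 of 60 members (11.7%), 2 of them among the 11 fallen genes with an entry. The others were Dnajc16, Dnajc8, Hsf2, Hsf3 and Hsph1, none of which passed the test in the mutants. The ER stress element was in 0.122% of all genes and in 2 of 60 members (3.33%). A match describes letters in this window and is not evidence that a factor binds there.

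Among J-proteins outside the reticulum, Dnajc13 (RME-8), which acts on endosomes in the sorting of receptors, was measured by 15 probe sets. Its brightest measured 10.87, 10.62 and 10.88 in wild type, 10.37, 10.20 and 10.18 in the mutants and 10.71, 10.60 and 10.58 in rescue. The mutants were the 3 lowest and rescue overlapped wild type. The mutant level was 1.45-fold lower (log2 -0.54 ± 0.11; limma adjusted p = 0.00447), and the call held under all 19 alternatives with an adjusted p of at most 0.0258. On all 15 probe sets every mutant lay below every wild type, with differences from -1.39 to -0.40 (median -0.58). These probe sets read 1 RNA on the same 9 arrays and are not replicates.

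**Figure D3:**
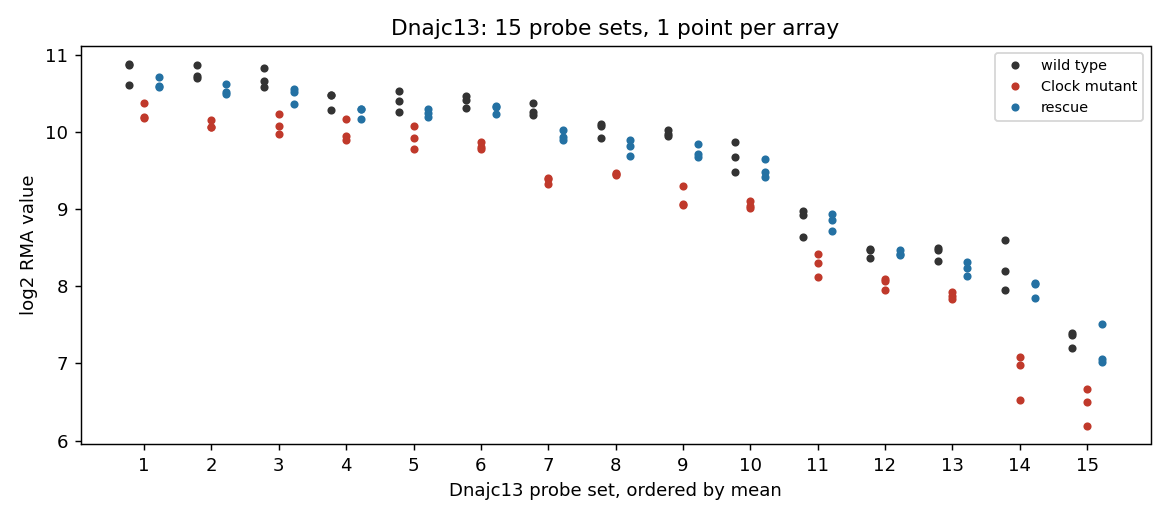
Log2 level on each of the 15 Dnajc13 probe sets, ordered by mean, 1 point per array coloured by group. On all 15 the 3 mutant points lie below the 3 wild-type points, and on 14 they lie below the 3 rescue points.

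Among 8 class A and B J-proteins of the cytosol, 2 fell. Dnajb6, which holds back aggregation of glutamine-rich proteins, measured 7.37, 7.27 and 7.18 in wild type, 6.96, 6.36 and 6.81 in the mutants and 6.99, 6.40 and 6.43 in rescue. Mutant and rescue animals overlapped and both lay below wild type. The mutant level was 1.48-fold lower (log2 -0.57 ± 0.17; limma adjusted p = 0.0345), with one of the widest spreads of any member (residual SD 0.267, against a median of 0.138). The call was lost without any 1 wild-type array or without mutant 2 or 3 (adjusted p up to 0.139). Dnajb4, a relative of Dnajb1, measured 9.43, 9.53 and 9.73, then 9.16, 9.11 and 9.27, then 9.53, 9.14 and 9.33 in wild type, mutant and rescue. All mutants lay below all wild types, and rescue overlapped both. The fall was 1.30-fold with an adjusted p of 0.0462, near the threshold, and the call was lost without wild type 2 or 3, any 1 mutant array or rescue 3 (adjusted p up to 0.18).

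The remaining members of that group did not pass. Dnajb1, the stress-induced partner of HSP70, measured 6.85, 6.79 and 6.96 in wild type, 7.07, 6.69 and 6.92 in the mutants and 6.87, 6.58 and 6.97 in rescue, with all groups overlapping. Dnaja1, a farnesylated class A cochaperone, measured 11.65, 11.77 and 11.86, then 11.38, 11.67 and 11.38, then 11.68, 11.57 and 11.68. Its mutants were lower on average but overlapped wild type (log2 -0.28; limma adjusted p = 0.105), and on its probe set placed on the gene's own chromosome the difference was -0.07. In a separate group of 4 class B J-proteins of testis, Dnajb7 alone fell. This small intronless gene measured 6.00, 6.19 and 6.38 in wild type, 5.92, 5.44 and 5.72 in the mutants and 5.82, 6.08 and 6.12 in rescue. Its mutants lay below all wild types (log2 -0.50 ± 0.14; adjusted p = 0.027), a call lost without wild type 2 or 3 or mutant 2 or 3 (adjusted p up to 0.12).

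No call fell on the remaining class C groups in the mutants. The 5 J-proteins of ribosome, splicing and chromatin ran from -0.30 (Dnajc21, of ribosome assembly) to 0.38 (Dnajc8, of the spliceosome) on the log2 scale. Dnajc8 measured 7.50, 7.25 and 7.46 in wild type, 7.81, 7.90 and 7.64 in the mutants and 7.84, 7.57 and 7.43 in rescue. Its mutants lay above all wild types, just outside the threshold (limma adjusted p = 0.055), as did Dnajc28 on the low side (-0.40, adjusted p = 0.0528). The 8 other class C genes, Dnajc28 among them, ran from -0.40 to 0.28 (Dnajc22), and the 4 vesicle proteins beside Dnajc13 did not pass either.

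**Figure D4:**
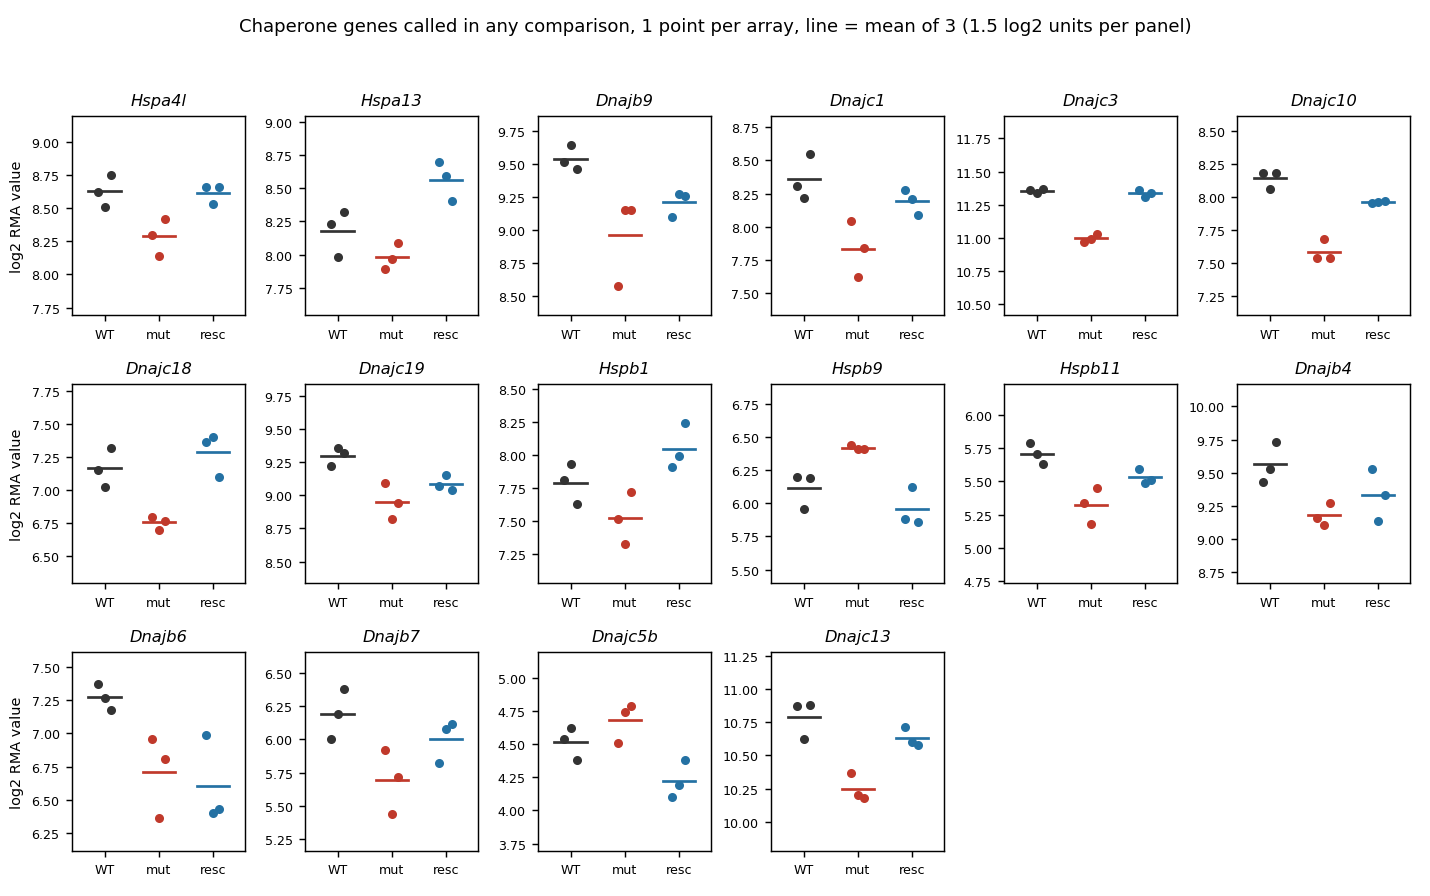
Log2 level of each member called in any comparison, 1 point per array in wild type, mutant and rescue, with the mean of 3 as a line and 1.5 log2 units in every panel. All mutant points lie below all wild-type points in the 12 genes that fell, and the rescue points of Dnajb6 stay with the mutants.

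In mitochondria, 1 of 8 genes fell. Dnajc19, a J-protein of the motor that pulls proteins through the inner membrane, measured 9.22, 9.36 and 9.32 in wild type, 9.09, 8.82 and 8.94 in the mutants and 9.07, 9.15 and 9.04 in rescue. Mutants lay below all wild types by 1.27-fold (log2 -0.35 ± 0.10; limma adjusted p = 0.0352), and rescue overlapped the mutants. The call was lost without any 1 wild-type array or without mutant 2 or 3 (adjusted p up to 0.112). The matrix chaperones showed smaller differences. Hspa9 (mortalin), the matrix HSP70, measured 11.84, 11.67 and 11.74 in wild type, 11.79, 11.87 and 11.74 in the mutants and 11.78, 11.57 and 11.69 in rescue. Hspd1 (HSP60) measured 12.02, 11.93 and 12.01, then 11.68, 11.95 and 11.79, then 11.83, 11.68 and 11.87. Hspe1 (HSP10), its lid, measured 11.52, 11.34 and 11.52, then 11.41, 11.40 and 11.48, then 11.47, 11.32 and 11.38. Mutants overlapped wild types for all 3 genes on these probe sets, and their differences of 0.05, -0.18 and -0.03 had adjusted p of 0.766, 0.259 and 0.845. On the Hspd1 probe set placed on the gene's own chromosome, the mutants (10.71, 10.63 and 10.63) lay below all wild types (10.79, 10.77 and 10.81). That difference was -0.135, and Hspd1 was not called in the mutants under any of the 19 alternatives.

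Of 11 cytosolic HSP70, HSP110 and HSP90 genes, Hspa4l alone fell. Hspa4l, an HSP110 family member, measured 8.62, 8.51 and 8.75 in wild type, 8.30, 8.14 and 8.42 in the mutants and 8.66, 8.53 and 8.66 in rescue. The mutants lay below all other animals, by 1.27-fold against wild type (log2 -0.35 ± 0.11; limma adjusted p = 0.0462). It was called in 9 of 19 alternatives and lost without wild type 1 or 3, mutant 1 or 2, or rescue 1 or 3 (adjusted p up to 0.168). Its relatives Hspa4, at 10.38, 10.43 and 10.56 against 10.04, 10.33 and 10.17 in the mutants, and Hsph1, at 8.21, 8.40 and 8.67 against 8.40, 8.39 and 8.56, did not pass. Hspa4 mutants lay below the wild types (log2 -0.28, adjusted p = 0.0929), while those of Hsph1 lay among them.

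The inducible Hspa1a measured 6.27, 6.27 and 6.44 in wild type, 6.13, 6.32 and 6.34 in the mutants and 6.01, 5.91 and 6.05 in rescue. Its constitutive counterpart Hspa8 measured 12.01, 12.08 and 12.27, then 11.91, 12.29 and 12.07, then 12.36, 11.80 and 11.99. Hsp90aa1, the inducible cytosolic HSP90, measured 10.95, 11.20 and 11.27, then 10.74, 11.01 and 11.12, then 11.27, 11.36 and 11.29. Mutants overlapped wild types for all 3, with log2 differences of -0.07, -0.03 and -0.18 (limma adjusted p = 0.703, 0.908 and 0.321). The 3 rescue values of Hspa1a were the lowest of the 9, with an adjusted p of 0.124 against wild type and 0.154 against the mutants.

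The small heat shock protein names held 8 genes, of which Hspb11 fell. Hspb11 is a part of the intraflagellar transport machinery of cilia despite its name. It measured 5.79, 5.71 and 5.63 in wild type, 5.34, 5.18 and 5.45 in the mutants and 5.59, 5.49 and 5.51 in rescue. Mutants lay below all other animals (log2 -0.39 ± 0.10 against wild type; limma adjusted p = 0.0223), though the probe set was among the dimmest 40% of genes and the call was lost without wild type 1 or 2 or mutant 1 or 2 (adjusted p up to 0.0789). Hspb8, which works with BAG3 in selective autophagy, measured 9.41, 8.74 and 9.0 in wild type, 9.47, 9.23 and 9.48 in the mutants and 9.37, 8.48 and 8.94 in rescue. It had the widest residual spread of the 74 genes (SD 0.333), its groups overlapped, and its adjusted p was 0.254 in the mutants.

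The 5 genes with Hsf symbols showed no call in any comparison, and Hsf1 was not among them. Hsf2 measured 8.68, 8.82 and 8.99 in wild type, 8.71, 8.40 and 8.62 in the mutants and 9.01, 8.69 and 8.76 in rescue. Hsf4, a factor of the lens, measured 5.92, 6.01 and 5.93, then 6.19, 6.30 and 6.06, then 5.89, 5.93 and 6.20. The mutants of Hsf4 lay above all wild types and those of Hsf2 overlapped them, with log2 differences of 0.23 and -0.26 (limma adjusted p = 0.185 and 0.182). Hsf5, known from testis, differed by 0.17 and Hsf2bp, named for binding HSF2, by 0.28, and neither passed (adjusted p = 0.311 and 0.163). Hsf3 lay between 2.36 and 2.64, below the median of olfactory receptor genes, 4.15 to 4.33, on every array.

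Heat shock elements were counted in the same promoter windows. Either arrangement of the unit, GAANNTTC or TTCNNGAA, was in 13.4% of all genes, in 14 of 60 members (23.3%) and in 3 of the 11 fallen genes with an entry, Dnajb4, Dnajb6 and Dnajc10. Hspd1 and Hspe1 are transcribed away from each other, and their windows share 285 bases, so the element at chr1:55088039-55088096 is printed for both strands (Hspd1 minus, Hspe1 plus). It is shown beside those of Hspb1 (chr5:135887777-135887854, plus strand), Hspa1a (chr17:34972228-34972285, minus strand) and Dnajb6 (chr5:29735827-29735884, plus strand) because, of these 5 genes, Dnajb6 alone fell in the mutants and Hspb1 alone rose in rescue. Capitals mark GAA and TTC of the matched units.
Hspd1: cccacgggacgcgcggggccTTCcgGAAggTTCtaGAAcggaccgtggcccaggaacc
Hspe1: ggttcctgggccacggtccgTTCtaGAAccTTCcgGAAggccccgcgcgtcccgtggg
Hspb1: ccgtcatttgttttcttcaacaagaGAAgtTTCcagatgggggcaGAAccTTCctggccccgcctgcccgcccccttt
Hspa1a: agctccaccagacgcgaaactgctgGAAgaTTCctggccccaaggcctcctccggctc
Dnajb6: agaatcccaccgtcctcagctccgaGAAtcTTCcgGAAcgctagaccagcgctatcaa

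The pathway lists held 91 genes that are no members: cochaperones, chaperonins, folding enzymes with Hspa5, mitochondrial proteases and import genes, targets of heat shock factor 1, and immediate early and cold-inducible genes. In the mutants 24 of them were called (26.4%, against 15.4% of all genes), 16 higher and 8 lower. On median-centred arrays this split became 5 higher and 9 lower, while 2882 of 19938 genes were called, against 3068 in the main fit. With the quantile normalization repeated, the split was 10 higher and 2 lower in cochaperones, and 4 and 1 in both chaperonins and folding enzymes. For targets of heat shock factor 1 it was 3 and 0, and for mitochondrial genes 2 and 0. Cold-inducible genes gave 1 and 0, and immediate early genes 0 and 1. Both the count and the direction of the calls in these lists thus depend on the scaling. Of 31 cochaperones of HSP70 and HSP90, 8 rose and 4 fell. Cdc37, which delivers kinases to HSP90, rose by 0.62 ± 0.11 on the log2 scale (limma adjusted p = 0.00173) and Sgta, a sorting factor for membrane proteins, by 0.42 (0.0111). Ptges3, the HSP90 cochaperone p23, fell by 0.57 (0.00225), and Cdc37l1, a relative of Cdc37, by 0.37 (0.0192). The Ptges3 call was lost on its probe set placed on the gene's own chromosome (adjusted p = 0.0822). Cdc37 was called under all 19 alternatives. Bag3, the nucleotide exchange factor paired with HSPB8, rose from 7.56, 7.87 and 7.95 to 8.07, 8.44 and 8.15, with all mutants above all wild types, by 0.43 ± 0.13 (adjusted p = 0.0351), but not with the arrays centred (largest adjusted p over the alternatives 0.145).

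Of 12 folding enzymes and chaperones of the reticulum, 3 rose and 1 fell, a split that became 1 and 1 with centred arrays. Calr (calreticulin), a lectin chaperone, rose by 0.62 ± 0.11 (log2; limma adjusted p = 0.00181) and was called under all 19 alternatives. Pdia6 rose by 0.57 (0.0164) and Hyou1 (GRP170) by 0.42 (0.0396), both lost on centring, and Pdia3, a disulfide isomerase that works with calreticulin, fell by 0.43 (0.0248). Among 14 chaperonin and prefoldin genes, 2 rose, Pfdn1 and Pfdn6, and 1 fell, Vbp1, another prefoldin subunit, by 0.78 ± 0.15 (adjusted p = 0.00291). Of 13 genes listed for mitochondrial proteolysis and import, 3 rose and 1 fell. Clpx, the unfoldase of the matrix protease ClpXP, rose by 0.90 ± 0.12 (adjusted p = 0.000228) and its protease Clpp by 0.40 (0.0249), while Tomm20, an import receptor, fell by 0.50 (0.0333). The third to rise, Cryab, is a cytosolic small heat shock protein.

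Of 12 targets of heat shock factor 1 outside the family names, Bag3, Fkbp4 and Cryab rose and Chordc1 fell, by 0.47 (log2; limma adjusted p = 0.0391), which became none and 1 with centred arrays. Over the 19 alternatives, Bag3 and Fkbp4 were each called in 13, Chordc1 in 12 and Cryab in 5. The temperature-responsive RNA-binding genes did not pass: Cirbp differed by 0.18 (adjusted p = 0.381) and Rbm3 by 0.38 (adjusted p = 0.0755). Of 15 immediate early genes, Myc fell by 1.42 (adjusted p = 0.0273) and the other 14 did not pass. Mutant values of Myc (7.29, 7.50 and 8.59) overlapped those of wild type (8.15, 9.53 and 9.94). The Myc call was lost with a trended and robust prior and without wild type 2 or 3 or mutant 1 or 2 (adjusted p up to 0.164).

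In rescue against mutant livers, 4 members rose and 2 fell, and 3 of the 4 belong to the endoplasmic reticulum. The 6 calls are 8.11% of the members, against 3.81% of all genes, and by direction 5.41% and 2.7% of the members against 2.61% and 1.2% of all genes. This comparison shares its mutant animals with the one above, so the calls of both are not independent. Rescue values lay apart from mutant values in 20 members (27%), 13 higher and 7 lower, against 25.7% of all genes, and at an unadjusted p under 0.05 there were 12 higher and 8 lower, 27% against 21.1% of all genes. The median difference was -0.016 over members and -0.053 over all genes. Median-centred arrays gave 6 that rose and none that fell: Dnajc13 and Dnajc3 joined, and Dnajc5b and Hspb9 no longer passed. This setting called 906 genes in all, against 759 in the main fit. None of the 6 was called without mutant 1 or without mutant 2, and the count was 3, 4 and 5 without wild type 1, 2 and 3, 2 without mutant 3, and 1, 1 and 2 without rescue 1, 2 and 3. Calls over all genes also fell in these settings, from 759 to between 200 and 692.

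Hspa13 (STCH), an HSP70 of the reticulum that lacks the part that binds clients, measured 8.23, 7.98 and 8.32 in wild type, 7.89, 7.97 and 8.09 in the mutants and 8.70, 8.59 and 8.40 in rescue. The rescue animals were the 3 highest of the 9, and mutants overlapped wild types. Rescue was 1.49-fold above the mutants (log2 0.58 ± 0.12; limma adjusted p = 0.0204), the largest difference of any member in this comparison. Dnajc18 was 1.45-fold higher in rescue (log2 0.53 ± 0.11; adjusted p = 0.0234) and Dnajc10 1.30-fold higher (log2 0.37 ± 0.10; adjusted p = 0.0483), from the values given above, with all rescue animals above all mutants. The Dnajc10 call held in 6 of 19 alternatives, that of Dnajc18 in 14 and that of Hspa13 in 15. Dnajc3 and Dnajc13 were also higher in every rescue animal than in every mutant, by 0.34 and 0.38 on the log2 scale, with adjusted p of 0.0536 and 0.0657. With the mean of its 15 probe sets, Dnajc13 was 0.49 higher (adjusted p = 0.0175). The 12 genes of the reticulum had a median difference of 0.25, and their medians were -0.15 for mutant against wild type and -0.05 for rescue against wild type.

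Hspb1 (HSP27), the stress-induced small heat shock protein, measured 7.81, 7.93 and 7.63 in wild type, 7.52, 7.33 and 7.72 in the mutants and 7.91, 7.99 and 8.24 in rescue. All rescue animals lay above all mutants, by 1.43-fold (log2 0.52 ± 0.13; limma adjusted p = 0.041), and its second probe set gave 0.54. Hspb9, a small heat shock protein of testis, measured 6.20, 5.96 and 6.19, then 6.44, 6.41 and 6.41, then 5.88, 6.12 and 5.86. Dnajc5b, a cysteine string protein of testis, measured 4.54, 4.62 and 4.38, then 4.51, 4.74 and 4.79, then 4.10, 4.19 and 4.38. Both were lower in every rescue animal than in every mutant. The difference was -0.46 on the log2 scale for Hspb9 (adjusted p = 0.0331). Dnajc5b was called as well (adjusted p = 0.0466), but its rescue values lay at the level of the olfactory receptor median, 4.15 to 4.33 over the arrays, so the size of its difference is not interpreted. Outside the family names, Cdc37 fell by 0.43 (adjusted p = 0.0444) and Pfdn1 by 0.53 (adjusted p = 0.0415), the 2 calls among the 91 pathway genes, both lost with centred arrays. Of the marker lists, 1 Kupffer cell, 2 endothelial and 3 stellate cell genes rose in rescue, and their part in these differences was not tested.

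Between rescue and wild type, no member passed the limma test at an adjusted p under 0.05, against 2.28% of all genes, of which 0.928% rose and 1.35% fell. At an unadjusted p under 0.05, 3 members were higher and 6 lower (12.2% against 14.2% of all genes), and the groups lay apart in 17 members (23%), against 19.5% of all genes. The median was -0.061 over the members and 0.007 over all genes. Dnajb6 was nearest the threshold: rescue animals stayed with the mutants, 0.67 ± 0.17 below wild type on the log2 scale (adjusted p = 0.0517). It was called in several alternatives, among them without mutant 1, mutant 2 or rescue 1 (adjusted p = 0.0473, 0.0272 and 0.0137). Hspa2, an HSP70 known from spermatogenesis, measured 6.08, 6.39 and 6.26 in wild type against 5.79, 5.94 and 5.87 in rescue (-0.38, adjusted p = 0.0915). Missing the threshold does not show that a gene had returned to its wild-type level: the SE of a difference was 0.14 for Dnajb9, whose rescue animals all lay below wild type (-0.33; adjusted p = 0.303). Calr, Hyou1 and Clpx, outside the family names, were higher in rescue than in wild type, by 0.63, 0.68 and 1.23 (adjusted p = 0.00595, 0.0114 and 5.14e-05). The Hyou1 call was lost without wild type 3, rescue 1 or rescue 3 (adjusted p up to 0.0602).

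A single F test across the 3 groups called 11 members, 14.9% against 12.9% of all genes. These were Dnajb9, Dnajb6, Dnajc10, Dnajc13, Dnajc1, Dnajc18 and Dnajc3 of the genes that fell in the mutants, with Hspb1, Hspa13, Dnajc5b and Hspb9. The smallest adjusted p was that of Dnajc10 (0.00506). The 12 genes that fell had a median gene span of 38.0 kb, against 15.8 kb for the other 62 members and 17.7 kb for all genes. With the trend of the differences on gene span removed, 9 members were called in the mutants, 8 of them shared, and Dnajb4, Dnajb6, Dnajc18 and Hspa4l no longer passed. Calls over all genes also fell in this setting, from 3068 to 2777. The part of gene span in these falls was not tested.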

How the data were processed

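The authors deposited log2 expression values per probe set, made with RMA in Affymetrix Expression Console per the submitters' processing notes, both without a version in the sources used here. Because RMA equalises the distributions of the arrays, a change shared by most genes would not show, and low values are pulled together. The log2 base was read from the values (maximum 13.86). No read depth exists for arrays, and 9 arrays limit the precision.

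Of 35556 probe sets, 21789 had 1 symbol in the platform annotation, 1621 several and 12146 none. The brightest probe set per gene left 19938 genes. All 74 members matched the RefSeq gene table, and 8 had more than 1 probe set. For Dnaja1, Hsp90aa1, Hspb1 and Hspd1 the brightest probe set's neighbours in identifier order lie on another chromosome, as do those of 1.44% of all genes, so it may read a near-identical copy. A further 10 probe sets that carry several symbols name 5 members and were not used.

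All 9 arrays were fitted in 1 model with limma 3.58.1 (R 4.3.3; 6 residual and 8.475 prior degrees of freedom) with 3 contrasts and an F test. Benjamini-Hochberg adjustment ran over all genes, and a gene was called at an adjusted p under 0.05. The fit was tested on simulated data. Named genes are the members called in any test, all Hsf genes, a set of 16 well-known chaperones, and up to 4 called genes per pathway list with Hspa5, Cirbp, Rbm3 and Bag3. The members and lists were chosen with earlier results of these data known. Alternatives changed the block, filter, normalization, prior, weights, probe set, arrays and span trend. Promoter windows came from RefSeq (GRCm38.p6; first entry by coordinate where a gene had several). Figures used matplotlib 3.10.9 in Python 3.11.15.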

Additional observations from a re-analysis of the deposited data

How the results depend on the processing

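No difference of a named gene turned its direction at an adjusted p under 0.05 in any alternative run. Leaving out 1 array at a time gave 4 to 13 members called in mutant against wild type, 0 to 5 in rescue against mutant, 0 to 1 in rescue against wild type and 5 to 8 by the F test. Over all genes, the 3 comparisons between groups gave 1695 to 3130, 200 to 692 and 233 to 501 calls in these settings. With only the 6 arrays compared, rescue against mutant had 3, and 526 genes were called in all. Rescue against wild type had 1, Dnajb6, with the replicate block, with a trended and robust prior, with array weights and with only the 6 arrays compared, and 2, Dnajb6 and Hspa2, without the dimmest 40% of genes. Over all genes these settings gave, in this order, 507, 704, 661, 390 and 711 calls, against 454 in the main fit. The replicate block gave 14 calls in mutant against wild type, the main 12 with Dnajc28 and Dnajc8, and 5 in rescue against mutant. Over all genes the block gave 3368 and 931 calls in these 2 comparisons, against 3068 and 759 in the main fit. Same-numbered arrays deviated together only in part (correlations from -0.111 to 0.191), and the labels give no meaning to the numbers, so no pairing was used. For the 91 pathway genes, mutant against wild type gave 11 to 25 calls with 1 array left out and 14 with each array centred on its median. Rescue against mutant gave 0 to 4 with 1 array left out, 4 with the replicate block, 9 without the dimmest 40% of genes, 10 with quantile normalization repeated, 10 with a trended and robust prior, 10 with array weights, 1 with the span trend removed and 0 with only the 6 arrays compared. Calls over all genes in this comparison also moved, from 759 in the main fit. They were 931 with the replicate block, 1178 without the dimmest 40%, 985 with quantile normalization repeated and 1210 with a trended and robust prior. Array weights gave 1334, the span trend removed 551 and only the 6 arrays compared 526. Rescue against wild type gave 2 to 5 with 1 array left out, 6 without the dimmest 40%, 5 with a trended and robust prior and 5 with only the 6 arrays compared. The alternatives for pathway genes and the probe sets placed on a gene's own chromosome were added after seeing the data. The cause of these shifts was not tested. Some of these settings also put fewer arrays or fewer genes into the fit. Of the differences of single named genes, 1599 kept their side of the threshold, 46 lost the call and 50 gained it over the other settings. These include the fits of only the 6 arrays compared. With 1 array left out, 1377, 154 and 8 did so. Most of these differences were not called in the main fit and so had no call to lose. Signal limits 12 members, which lie among the dimmest 40% of genes.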
